A study of Mus musculus with 12 samples.

Results

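ATP-binding cassette (ABC) genes encode a large family of membrane pumps, among them the drug efflux pumps of tumor cells, and 48 of the 24197 gene rows of the deposited tumor table belonged to it here. They were the rows whose symbol is Abc followed by a subfamily letter from A to G and a number. Abca1 and Abcg1, which fit that pattern, were left out and are given only for comparison, so that 48 of 50 matching rows were kept. The rule used symbols and no measured value, but it was set with earlier results of these data known.

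The tumors came from E0771, a line of mouse breast carcinoma cells, of which 200000 were placed in a mammary fat pad of each host, all female mice of strain C57/BL6N, and tumor RNA was sequenced. Cyclophosphamide (CPA), a DNA-alkylating prodrug activated in the liver, was injected intraperitoneally once tumors averaged 200 to 250 mm3. There were 6 groups of 2 libraries, each library from pooled RNA of 2 to 3 tumors. The question was how tumor RNA changed with time over CPA treatment. The vehicle group received PBS and its mice were 9 to 10 weeks old. The groups of day 1, day 2 and day 3 received 130 mg/kg CPA once, also at 9 to 10 weeks. The day 6 group received the same single dose and its mice were 11 weeks old. The day 12 group received a second dose of 130 mg/kg on day 6 and its mice were 12 weeks old. This dose follows the labels, while a table of the study gives a different dose for these libraries. No vehicle tumors of the older ages were analysed here, so age and time after CPA cannot be told apart on days 6 and 12. The labels of 1 day 1 library conflict, with a title that names CPA and a treatment entry that names vehicle, and the title was followed. Values are FPKM, fragments per kilobase of gene, scaled to library size, and the authors' table gives 1 value per group with both libraries together. These values hold no spread between libraries, so no error is given and no test was run on them, and every difference below is a description. A gene was called higher or lower when its (FPKM + 0.1) differed by more than 2-fold between groups, provided its mean over the 6 groups was at least 1 FPKM, a minimum that 10649 rows passed. Log2 ratios and folds below are of (FPKM + 0.1), which understates the change of low genes.

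ABC proteins bind and hydrolyze ATP with a shared cassette, and most couple this to moving a substrate across a membrane. Subfamilies B, C and G hold the pumps known for multidrug resistance in cancer (P-glycoprotein, the MRP proteins and BCRP), which export drugs or their glutathione and glucuronide conjugates. Other members move lipids, peptides, bile salts, heme precursors or cobalamin, and subfamilies E and F have no membrane domain and work at the ribosome.

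Of the 48 ABC genes, 20 passed the minimum and 28 did not. Tumor RNA was uneven across the family. The summed level of all 48 was 176.5 FPKM in vehicle, 198.4, 175.6, 180.4 and 188.4 FPKM on days 1, 2, 3 and 6, and 137.9 FPKM on day 12. Of the vehicle sum, 54.4% came from the 4 ribosome-associated genes Abce1 and Abcf1 to Abcf3, 15.5% from the 4 mitochondrial genes and 9.62% from the 11 drug and conjugate efflux genes. On day 12 these shares were 45.4%, 11.1% and 16.1%. The 6 highest genes by mean level were Abcf1, Abce1, Abcf2, Abcb10, Abcd4 and Abcd3, none of them a drug pump.

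**Figure D1:**
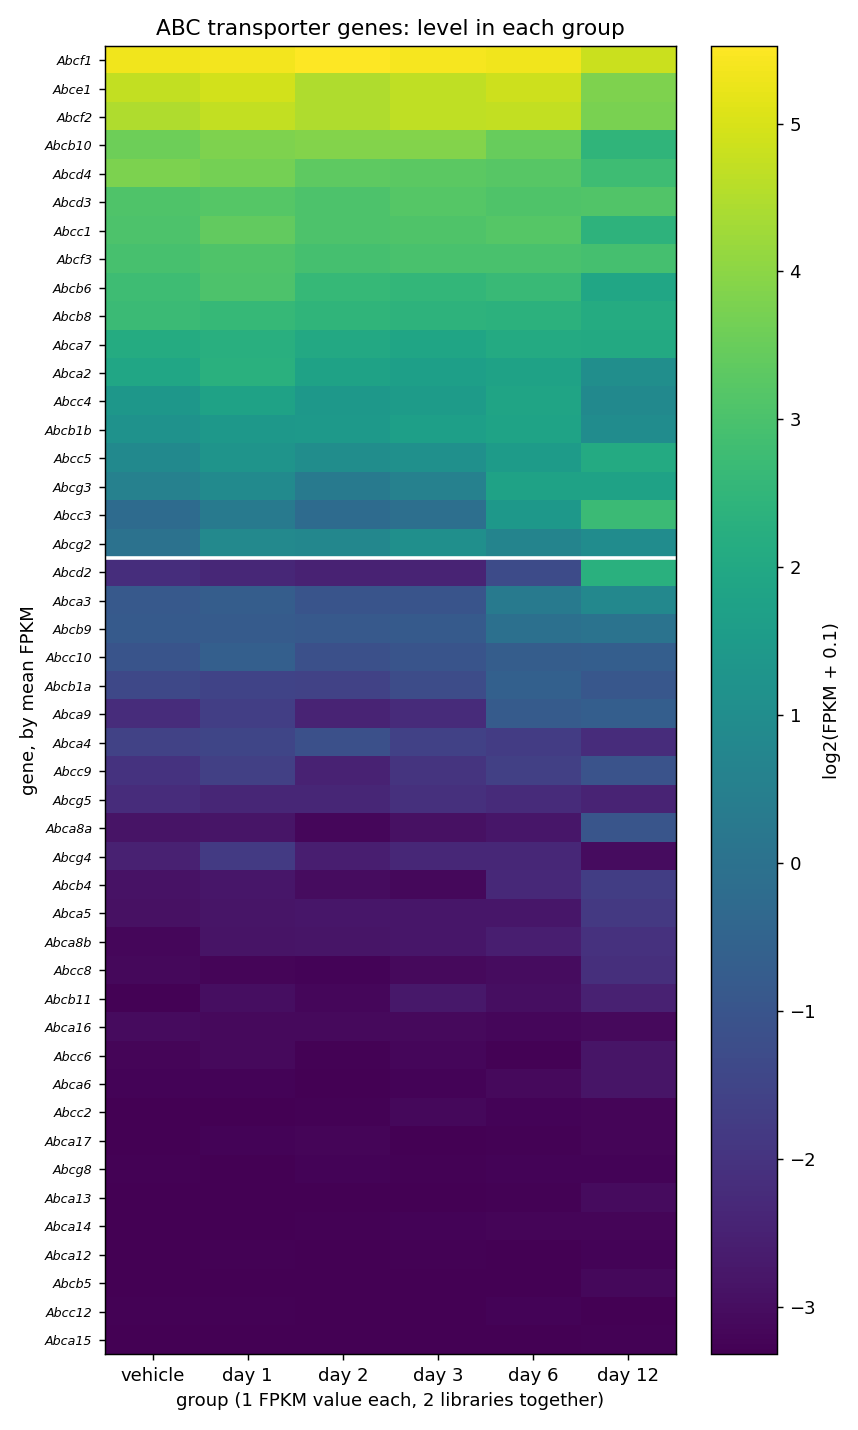
Level of 46 of the 48 ABC genes (rows, ordered by mean FPKM) in the 6 groups (columns), as color on a log2(FPKM + 0.1) scale, with 1 value per group. The white line divides the 18 genes plotted with a mean of at least 1 FPKM from the 28 below it, and Abcd2, just under the line, is bright on day 12 alone at 4.85 FPKM.

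On days 1 and 2, no ABC gene was called in either direction. Over all genes past the minimum, 0.225% were higher and 0.244% lower by this rule on day 1, and 0.648% and 0.498% on day 2. The median log2 ratio of the 20 expressed ABC genes on day 1 was 0.27, and 18 of the 20 were above 0. Over all 10649 genes the median was 0.06, and 39.3% were below 0. The day 1 ratios of the ABC genes ran from -0.11 for Abcd4 to 0.84 for Abcg2. On day 2 the median was -0.03 for the ABC genes and -0.03 for all genes. The day 1 level was the highest of the 6 for 9 of the 20 ABC genes, and 27.7% of all genes peaked in that group.

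On day 3, 1 of the 20 was called higher, Abcg2, and none lower, where 1.33% of all genes were higher by this rule and 0.573% lower. On day 6, 2 were called higher, Abcc3 and Abcg3, and none lower, against 6.32% and 0.46% of all genes. On day 12, 3 were called higher, Abcc3, Abcg3 and Abcc5, and 1 lower, Abcb10, against 11.6% and 9.67% of all genes. These shares of ABC genes, 15% and 5%, are not far from the background. All days are compared with the same vehicle value. Of the 20, 5 were called on at least 1 day (25%) and 15 on none, and 22.6% of all genes past the minimum were called on at least 1 day.

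Both libraries of day 12 were shallower than a vehicle library and 1.91-fold apart in depth, as read from the steps of low values. The whole table was shifted downward on day 12, with a median log2 ratio to vehicle of -0.26 over the 10649 genes. The ABC genes had a median of -0.33, and 14 of 20 were below 0. Day 12 was the lowest of the 6 groups for 12 of the 20 ABC genes and for 55.8% of all genes. Relative to the shifted median, Abcb10 was no longer past 2-fold (log2 -0.85) and Abcg2 was (log2 1.24), while 14.5% of all genes were then higher and 4.39% lower.

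**Figure D2:**
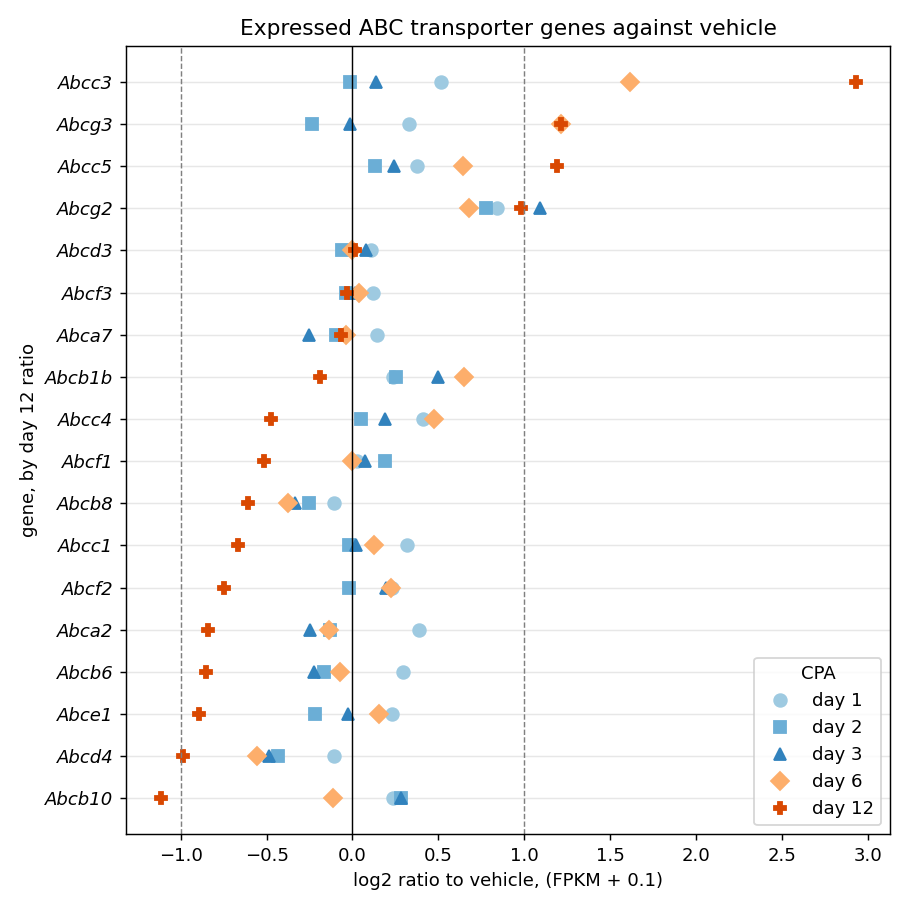
Log2 ratio to vehicle of (FPKM + 0.1) for 18 of the 20 ABC genes with a mean of at least 1 FPKM, 1 symbol per day of CPA, with dashed lines at 2-fold. Day 12 values spread from -1.12 for Abcb10 to 2.93 for Abcc3, while the values of days 1 to 3 lie within 2-fold apart from Abcg2 on day 3 (1.09).

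The drug and conjugate efflux group held 11 genes, of which 6 passed the minimum. Its summed level was 17.0 FPKM in vehicle, 22.1, 18.2, 20 and 23.8 FPKM on days 1, 2, 3 and 6, and 22.2 FPKM on day 12. The day 12 sum was above vehicle through Abcc3. Without it, a choice made after its values were seen, the sum was 16.2 FPKM in vehicle and 15.8 FPKM on day 12. The median log2 ratio of the 6 expressed pumps was 0.64 on day 6 and 0.40 on day 12, where all genes had medians of 0.04 and -0.26. The day 12 median lies between separate values. Abcc3, Abcc5 and Abcg2 were above vehicle (log2 2.93, 1.19 and 0.98), while Abcb1b, Abcc4 and Abcc1 were below (-0.19, -0.48 and -0.66).

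Abcc3 (mm9 chr11:94204608-94254290) encodes MRP3, which exports glucuronide and other organic anion conjugates. Its level was 0.754 FPKM in vehicle, 1.12, 0.745 and 0.841 FPKM on days 1 to 3, 2.52 FPKM on day 6 and 6.41 FPKM on day 12. Days 2 and 3 were at 0.989-fold and 1.10-fold of vehicle and day 1 at 1.43-fold, while days 6 and 12 stood above all other groups. The ratio to vehicle was 3.07-fold on day 6 and 7.62-fold on day 12, at log2 1.62 and 2.93, the latter the highest of the expressed ABC genes. Its mean of 2.06 FPKM passed the minimum only through days 6 and 12. Its place among the expressed genes, its calls and this rank therefore rest on those values. With a pseudocount of 1 these log2 ratios were 1.004 and 2.08. It was also the 1 ABC gene called higher on day 12 against day 6, at 2.49-fold, a comparison in which 6.33% of all genes were called higher.

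Abcg2 (mm9 chr6:58546665-58642445) encodes BCRP, a half-transporter that dimerizes and exports many drugs and also marks some stem cells. Its level was 0.897 FPKM in vehicle and 1.68, 1.61, 2.03, 1.497 and 1.87 FPKM on days 1, 2, 3, 6 and 12. Every treated group was above vehicle, by 1.60-fold to 2.13-fold. It was the highest ABC ratio on days 1, 2 and 3, and only day 3 passed 2-fold. With a mean of 1.60 FPKM it was the lowest gene inside the minimum, and its day 3 call was lost with a pseudocount of 1.

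Abcc5 (mm9 chr16:20400833-20426467, the first of 2 locations listed) encodes MRP5, which exports cyclic nucleotides and nucleotide analogs. Its level was 1.75 FPKM in vehicle, 2.29, 1.92, 2.08 and 2.78 FPKM on days 1, 2, 3 and 6, and 4.12 FPKM on day 12. Day 12 was 2.29-fold above vehicle and was the highest of the 6 groups, and its call was lost with a pseudocount of 1 (log2 0.90).

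Abcc1 and Abcc4 were not called on any day. Abcc1 encodes MRP1, an exporter of glutathione conjugates and the most abundant pump of the group. Its level was 8.28 FPKM in vehicle, 10.3, 8.16, 8.41 and 9.04 FPKM on days 1, 2, 3 and 6, and 5.19 FPKM on day 12. Abcc4 encodes MRP4, which exports cyclic nucleotides and prostaglandins. Its level was 2.46 FPKM in vehicle, 3.30, 2.55, 2.82 and 3.45 FPKM on days 1, 2, 3 and 6, and 1.74 FPKM on day 12. Both were lowest on day 12, with log2 ratios to vehicle of -0.66 for Abcc1 and -0.48 for Abcc4, while Abcc3 and Abcc5 were highest there.

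**Figure D3:**
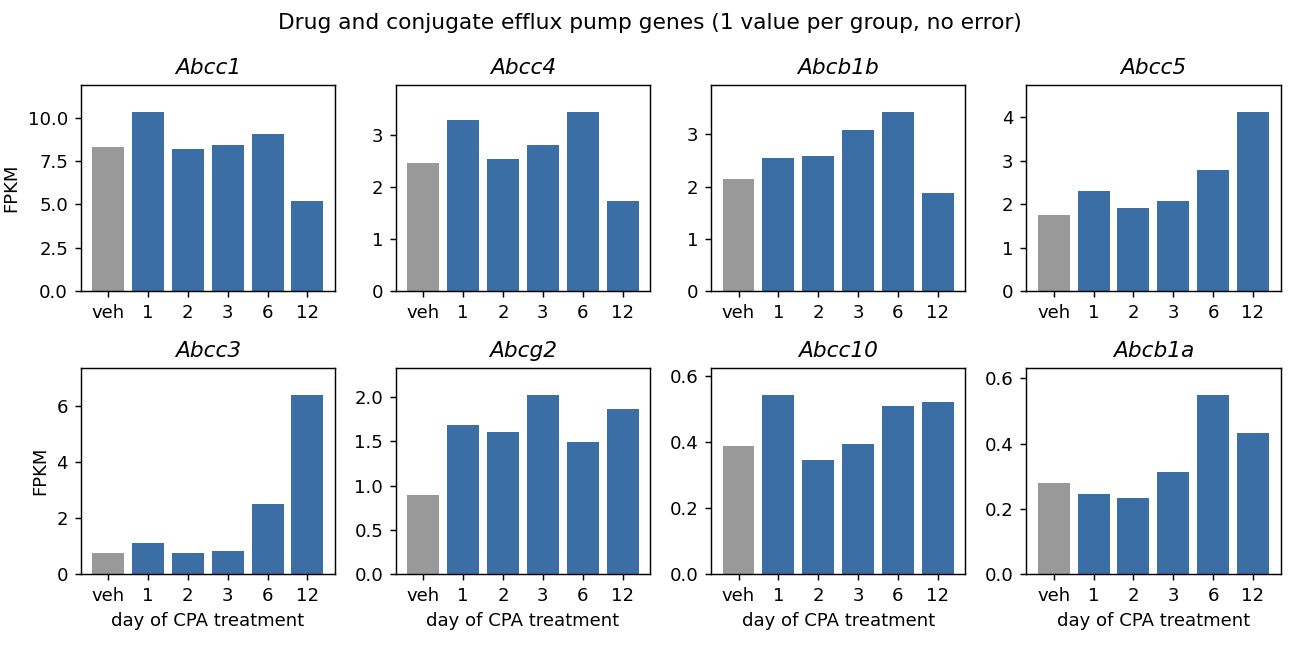
FPKM of 8 drug and conjugate efflux genes in vehicle (gray) and on days 1, 2, 3, 6 and 12 of CPA (blue), with 1 value per group, no error bars and a separate scale for each gene. Abcc3 and Abcc5 are highest on day 12, Abcc1 and Abcc4 are lowest there, and Abcg2 is above its vehicle level of 0.897 FPKM in every treated group.

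The mouse has a pair of P-glycoprotein genes, Abcb1a and Abcb1b, which lie side by side on chromosome 5 (mm9 chr5:8660091-8748570 and chr5:8798146-8866314) and are close in sequence. The sources used here do not state how reads that match both were counted, so the split between the pair is uncertain. Abcb1b was the more abundant by FPKM, with 2.16 FPKM in vehicle, 2.56, 2.59, 3.08 and 3.43 FPKM on days 1, 2, 3 and 6, and 1.88 FPKM on day 12. Abcb1a was at 0.279 FPKM in vehicle, 0.244, 0.235, 0.312 and 0.549 FPKM on days 1, 2, 3 and 6, and 0.431 FPKM on day 12. Both were highest on day 6, at 1.57-fold of vehicle for Abcb1b, and neither was called. The 250 bases before the start of Abcb1b are shown because it was the higher of the pair. They were read from RefSeq (GRCm38.p6, another build than that of the table), at chr5:8797897-8798146 on the plus strand, and capitals mark motif matches. The start listed for Abcb1a lies far from that of its GENCODE model in the same build, and its sequence is not shown.

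Abcb1b: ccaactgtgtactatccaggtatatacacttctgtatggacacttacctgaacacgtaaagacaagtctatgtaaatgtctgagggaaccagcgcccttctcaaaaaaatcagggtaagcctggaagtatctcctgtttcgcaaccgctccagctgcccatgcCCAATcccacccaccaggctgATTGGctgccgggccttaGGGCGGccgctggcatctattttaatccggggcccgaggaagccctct

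A fixed set of motifs was searched on both strands of the 250 bases before a gene's first listed start, and the set was chosen with the values known. The core promoter motifs were TATAAA, named the TATA box, the letters CCAAT and the GC box, which was searched as GGGCGG. The E-box was searched as CACGTG. The core of the antioxidant response element was searched as TGACNNNGC, and the half-site of nuclear receptors was searched as AGGTCA. None of these motifs contains another. The Abcb1b window held a CCAAT box at -87, a reverse CCAAT box (ATTGG) at -66 and a GC box at -48, counted from the start site. Its GC content was 52.8%. Among the 27025 mouse promoters listed, 34.5% held a CCAAT box and 32.9% a GC box. Of the 37 ABC genes with a listed promoter, 12 held a CCAAT box and 15 a GC box. Abcc3 and Abcd2 had no entry in that list.

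The remaining efflux genes were low. Abcc10, known for taxane export, was at 0.344 to 0.542 FPKM over the 6 groups. Abcc2 encodes MRP2, the canalicular conjugate pump of the liver. It was listed at 0 in vehicle and on day 1, and at 0.00276, 0.013, 0.00643 and 0.00755 FPKM on days 2, 3, 6 and 12. Abcc6 and Abcc12 did not pass 0.0405 FPKM in any group.

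The mitochondrial group held 4 genes, all expressed, which act in heme and iron-sulfur metabolism. Their summed level was 27.4 FPKM in vehicle, 31.2, 28.1, 27.5 and 25.1 FPKM on days 1, 2, 3 and 6, and 15.3 FPKM on day 12. Abcb10 (mm9 chr8:126476358-126507022) encodes an inner membrane protein needed for heme synthesis in red cell precursors. Its level was 11.9 FPKM in vehicle, 14.04, 14.5, 14.5 and 11.0 FPKM on days 1, 2, 3 and 6, and 5.44 FPKM on day 12. The day 12 level was 2.17-fold below vehicle, the lowest ratio of the expressed ABC genes. It was also 2.00-fold below day 6, at log2 -1.003 and so just past the threshold. The day 12 log2 ratio to vehicle was -0.85 for Abcb6, a porphyrin transporter, and -0.61 for Abcb8, neither past 2-fold. Of 9 other mitochondrial iron and heme genes, 1 was called higher on day 12, the scaffold Iscu at log2 1.00, just past the threshold. The iron importer Slc25a37 was the 1 called lower, at 17.1 FPKM in vehicle and 7.68 FPKM on day 12 (log2 -1.15). These calls were made before recentring, when the median gene was at log2 -0.26, beside 11.6% of all genes higher and 9.67% lower. The 8 erythroid markers, mainly globin genes, summed to 86.5 FPKM in vehicle, 7.93 FPKM on day 3 and 870.5 FPKM on day 12, with 4 called higher there. Their part in the levels of Abcb10 was not tested.

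The 4 genes without a membrane domain were the most abundant. Abce1 (mm9 chr8:82207340-82235639), which splits ribosomes for recycling, was at 25.8 FPKM in vehicle, 30.3, 22.2, 25.3 and 28.7 FPKM on days 1, 2, 3 and 6, and 13.8 FPKM on day 12. Day 12 was its lowest group, 1.86-fold below vehicle and thus not called, and 2.07-fold below day 6. Abce1 and Abcb10 were the 2 ABC genes called lower on day 12 against day 6, where 8.95% of all genes were. Recentred on the median gene, neither was past 2-fold (log2 -0.76 for Abce1 and -0.72 for Abcb10), and the Abcb10 call was also lost with a pseudocount of 1 (log2 -0.90). Abcf1, which promotes translation initiation, was at 40.2 FPKM in vehicle, 41.0, 45.9, 42.4 and 40.1 FPKM on days 1, 2, 3 and 6, and 28.1 FPKM on day 12. Abcf2 was at 22.2 FPKM in vehicle, 26.1, 21.9, 25.5 and 25.96 FPKM on days 1, 2, 3 and 6, and 13.2 FPKM on day 12. Neither was called, and both were lowest on day 12. Abcf3, by contrast, stayed between 7.51 and 8.37 FPKM in all 6 groups. Of 8 measured genes of ribosome recycling and initiation, none was called on day 12 against vehicle, with a median log2 ratio of -0.45. Eif2s1 was called lower against day 6, with levels of 36.3 FPKM then and 15.8 FPKM after the second dose. That call was at log2 -1.20 before recentring, when the median gene was at -0.29. The 8 proliferation markers summed to 141.6 FPKM in vehicle and to 74.1 FPKM on day 12. Of them, 4 were called lower there before recentring, when the median gene was at log2 -0.26, beside 9.67% of all genes. The part of proliferation in the levels of these ABC genes was not tested. In bulk tumor RNA, fewer cells of a type and less RNA per cell cannot be told apart.

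The promoters of Abcb10 and Abce1 are shown because these genes were the 2 called lower on day 12 against day 6 before recentring. They come from the same RefSeq list at chr8:123983123-123983372 and chr8:79711741-79711990, both on the minus strand and written from 5′ to 3′ toward the gene.

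Abcb10: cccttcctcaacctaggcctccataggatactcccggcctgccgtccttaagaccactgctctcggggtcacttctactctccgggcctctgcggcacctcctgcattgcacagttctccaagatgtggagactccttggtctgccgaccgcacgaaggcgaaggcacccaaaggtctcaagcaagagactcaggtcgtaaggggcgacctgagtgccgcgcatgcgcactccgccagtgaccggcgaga
Abce1: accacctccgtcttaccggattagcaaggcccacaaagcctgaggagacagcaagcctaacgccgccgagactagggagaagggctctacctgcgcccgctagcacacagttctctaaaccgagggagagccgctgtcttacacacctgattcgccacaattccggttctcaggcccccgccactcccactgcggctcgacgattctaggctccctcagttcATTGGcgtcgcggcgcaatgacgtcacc

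Abce1 held a reverse CCAAT box at -28, and none of the other motifs. Abcb10 held none. Both were rich in GC, at 61.6% for Abcb10 and 60.4% for Abce1, where the median over all listed promoters was 52% and that over 37 ABC promoters 54.8%.

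In the lysosomal pair, Abcd4, which works in cobalamin export from the lysosome, was at 13.6 FPKM in vehicle and 12.6, 10.0, 9.64, 9.20 and 6.79 FPKM on days 1, 2, 3, 6 and 12. Among the 20 expressed ABC genes it had the lowest ratio to vehicle on days 1, 2, 3 and 6. Each group was below the one before it, and day 12 was just short of the threshold at log2 -0.99. Its partner in the group, the peptide transporter Abcb9, was below the minimum, with 0.470 FPKM in vehicle and 0.935 FPKM on day 12.

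The peroxisomal group, which includes Abcd2 and Abcd3, imports long fatty acids into peroxisomes for oxidation. Abcd3 was at 8.47 FPKM in vehicle and 9.13, 8.12, 8.95, 8.47 and 8.55 FPKM on days 1, 2, 3, 6 and 12, a narrow range. Abcd2 (mm9 chr15:90976301-91022238) had a mean of 0.922 FPKM, just outside the minimum, and is named here because of its values. Its level was 0.124 FPKM in vehicle, 0.0967, 0.0787 and 0.0841 FPKM on days 1, 2 and 3, 0.305 FPKM on day 6 and 4.85 FPKM on day 12. The day 12 ratio was 22.04-fold on FPKM + 0.1 (log2 4.46), larger than that of any ABC gene inside the minimum. With a pseudocount of 1 the log2 ratio was 2.38. The group's sum went from 11.6 FPKM in vehicle to 16.6 FPKM on day 12, and without Abcd2 from 11.5 to 11.7 FPKM. Of 10 peroxisome genes, 3 were called higher on day 12, Acsl1 (2.37 FPKM in vehicle and 23.9 FPKM on day 12), Acaa1a and Pex16, and none lower. Of all genes past the minimum, 11.6% were higher and 9.67% lower on that day.

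Fat cells are a known site of Abcd2 expression, and tumors in the mammary fat pad lie in adipose tissue. On day 12 each of the 10 adipocyte markers was past the threshold, and their summed level was 90.5 FPKM in vehicle, 67.0 to 147.4 FPKM on days 1 to 6 and 5926 FPKM on day 12. On day 6, 3 of the 10 were called higher. Adipoq was at 2.62 FPKM in vehicle and 138.0 FPKM on day 12. Of 11 mammary epithelial markers, Krt8 was abundant, at 125.0 FPKM in vehicle and 82.2 FPKM on day 12, while Krt18, Epcam and Cdh1 were below 1 FPKM in vehicle, at 0.518, 0.189 and 0.144 FPKM. On day 12, 6 of the 11 were called higher, with Epcam at 6.30 FPKM and Krt18 at 26.9 FPKM. Other tissue markers were higher too. The 8 fibroblast markers summed to 80.0 FPKM in vehicle and 344.9 FPKM on day 12, with 6 called higher and 0 lower. For 9 endothelial markers the sums were 28.2 and 70.9 FPKM, with 5 called higher and 0 lower. The part of fat, mammary gland and these other tissues in the day 12 values of Abcd2, Abcc3 and Abcc5 was not tested.

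**Figure D4:**
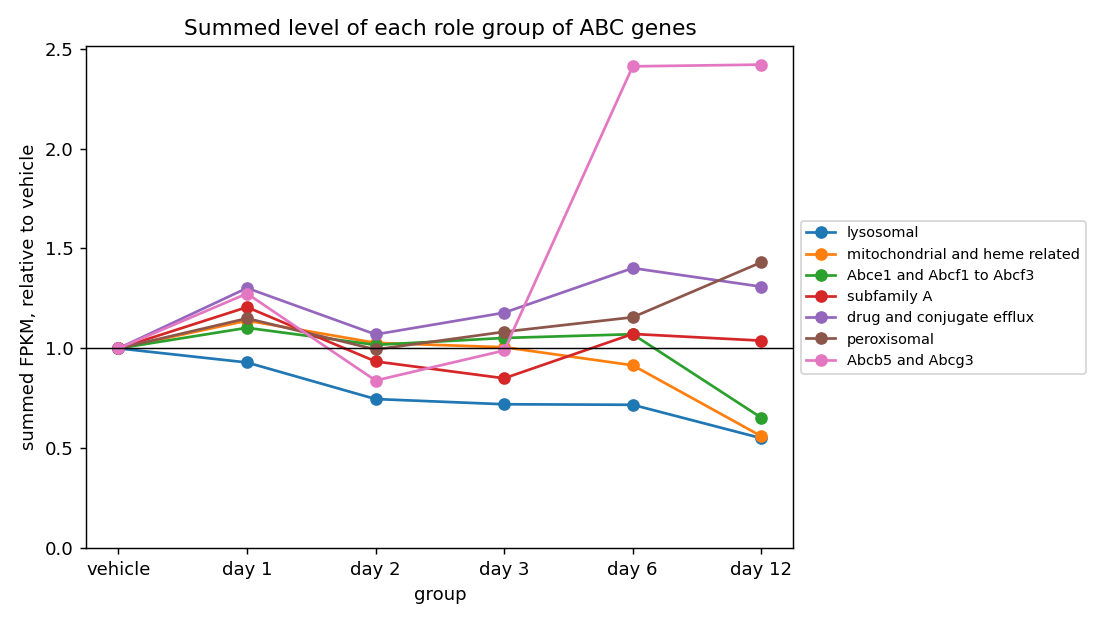
Summed FPKM of 7 role groups of ABC genes relative to their vehicle sum, against the 6 groups, with 1 line per role group and no error bars. The mitochondrial, lysosomal and ribosome-associated sums end below vehicle on day 12 (27.4 to 15.3, 14.02 to 7.72 and 95.9 to 62.6 FPKM), and the line of Abcb5 and Abcg3 is Abcg3 almost alone.

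Abcg3 (mm9 chr5:105364075-105411736), a rodent relative of Abcg2, was at 1.39 FPKM in vehicle, 1.77, 1.17 and 1.37 FPKM on days 1 to 3, and 3.35 FPKM on both day 6 and day 12. The level stepped up between days 3 and 6 and was the same after the second dose, with ratios to vehicle of 2.32-fold on both days (log2 1.21). Both calls were lost with a pseudocount of 1 (log2 0.86 on each day). Immune markers were also higher on these days. The summed level of 9 T cell markers was 12.8 FPKM in vehicle, 53.6 FPKM on day 6 and 84.4 FPKM on day 12, with 8 of 9 called higher on each day. That of 9 macrophage markers was 324.7 FPKM in vehicle, 1005 FPKM on day 6 and 1725 FPKM on day 12, with 8 and 9 called higher. The neutrophil sum was 4.002 FPKM in vehicle, 11.9 FPKM on day 6 and 299.5 FPKM on day 12, and 5 of its 7 markers were called higher on day 12, with Camp listed at 0 in vehicle. The part of these cells in the levels of Abcg3 and Abcc3 was not tested.

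Of 15 subfamily A genes, which move lipids, 2 passed the minimum and neither was called. Abca7, linked to phospholipid handling and phagocytosis, stayed between 3.55 and 4.71 FPKM. Abca2, a transporter of endosomes and lysosomes, was at 3.63 FPKM in vehicle and 1.99 FPKM on day 12. Abca3, the surfactant lipid transporter of lung, was below the minimum with a mean of 0.756 FPKM. Its level was 0.460 FPKM in vehicle, 0.506, 0.393 and 0.389 FPKM on days 1 to 3, 1.145 FPKM on day 6 and 1.65 FPKM on day 12. Abca8a and Abca9 were below 0.55 FPKM throughout, with 0.0395 and 0.120 FPKM in vehicle and 0.399 and 0.526 FPKM on day 12.

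Transporters of liver and gut were near 0. The phospholipid exporter Abcb4 was at 0.0355 FPKM in vehicle, 0.044, 0.0238, 0.0143 and 0.102 FPKM on days 1, 2, 3 and 6, and 0.205 FPKM on day 12. The bile salt export pump Abcb11 was at 0.00454 FPKM in vehicle, 0.0248, 0.011, 0.050 and 0.0264 FPKM on days 1, 2, 3 and 6, and 0.0774 FPKM on day 12. The sterol exporter Abcg5 stayed between 0.0843 and 0.134 FPKM, and its partner Abcg8 did not pass 0.00712 FPKM. The sulfonylurea receptors Abcc8 and Abcc9 reached 0.127 and 0.384 FPKM on day 12, their highest group. In all, 13 of the 48 ABC genes stayed below 0.1 FPKM in every group and 7 were listed at 0 in vehicle, while 39 were above 0 in all 6 groups. Of the 28 genes below the minimum, only Abcd2 and Abca3 reached 1 FPKM in any group.

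Of the ABC proteins outside the set, the cholesterol exporters Abca1 and Abcg1 were called higher on days 6 and 12. The vehicle, day 6 and day 12 levels of Abca1 were 1.02, 4.18 and 17.7 FPKM, and those of Abcg1 were 6.04, 15.8 and 22.5 FPKM. The peptide transporters of class I antigen presentation were abundant and not called, with Tap1 at 33.7 to 47.7 FPKM and Tap2 at 45.1 to 62.1 FPKM. Cftr, a chloride channel, did not pass 0.0127 FPKM.

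Among 13 transcription factors known to act on ABC genes, 7 passed the minimum. On day 12, Pparg was called higher, at 0.987 FPKM in vehicle, 2.70 FPKM on day 6 and 7.60 FPKM on day 12. It is also among the adipocyte markers above, and passed the minimum only through days 6 and 12. The sterol sensor Nr1h3 was also called higher, from 8.33 to 20.4 FPKM, and Sp1 was called lower, from 5.43 to 2.53 FPKM. The Sp1 call was at log2 -1.07 before recentring, when the median gene was at -0.26. These 2 higher calls and 1 lower call stand beside 11.6% and 9.67% of all genes. Nfe2l2, the oxidative stress regulator of conjugate pumps, was not called on any day, with 19.3 FPKM in vehicle and 20.6 FPKM on day 12. Of 12 glutathione genes, which make or attach the conjugates that MRP pumps export, 4 were called higher on day 12 and none lower. Of all genes past the minimum, 11.6% were higher and 9.67% lower on that day. Among the 4, Mgst1 went from 9.92 to 78.4 FPKM, Gsta4 from 0.708 to 9.57 FPKM and Gstm1 from 2.77 to 10.1 FPKM. The list median was a log2 ratio of -0.11. None of the 4 was called on day 6, when Mgst1, Gsta4 and Gstm1 were at 13.3, 0.621 and 4.10 FPKM. Gsta4 was below 1 FPKM in every group but day 12, and passed the minimum only through that group.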

How the data were processed

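Poly(A) RNA of E0771 tumors was sequenced from stranded libraries, 2 pools in each of 6 groups. Per the labels, the authors aligned reads to mm9 with TopHat2, counted them in featureCounts and used edgeR for their comparisons. The sources used here give no versions. The FPKM values, made and deposited by the authors, are 1 per group and gene. The table also holds the authors' ratios, fold changes and p-values, which were not used. Low FPKM values rise in steps of 1 counted read, which gave relative depths but no counts per library. The vehicle value is shared by all 5 comparisons with it.

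From the FPKM values, log2 ratios were taken with a pseudocount of 0.1, and genes past 2-fold with a mean of at least 1 FPKM over the 6 groups were called, with no test. The ABC genes, lists and motifs were chosen with earlier results of these data known. Named in full were expressed efflux and subfamily C genes, Abcb1a, Abcb1b, Abcb4, Abcb11, Abcc1 to Abcc4, Abcg2, all called genes and the 6 with the highest mean. Other names, such as Abcd2, Abca3, Abcd4 and Abcc10, were chosen after their values were seen. Up to 3 called genes of each related list were named. Alternatives were pseudocounts of 1 and 0.01, no minimum, a minimum of 1 FPKM in either group compared, a 1.5-fold threshold and recentring on the median gene. All 48 symbols matched RefSeq. Dose and ages are those of the labels. Calculations used Python 3.11.15, numpy 2.4.6 and pandas 2.3.3, and plots matplotlib 3.10.9. Single values of 2 ABC genes are not reported here, although sums and counts include them.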

Additional observations from a re-analysis of the deposited data

How the results depend on the processing

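No paired analysis was possible because the table joins both pools of a group in 1 value, and for the same reason no pool could be left out. Of 30 recomputed log2 ratios of called ABC genes, 2 moved by over 1.5 times, both of Abcc3 with a pseudocount of 1. Their direction could not reverse, since a pseudocount keeps the sign of a ratio. Recentring moved ratios by less than the 2-fold threshold that called genes had passed. A pseudocount of 0.01 changed no count by over 1.5 times, though it added Abcg2 on day 12. With a pseudocount of 1, ABC genes past the threshold upward numbered 0 on day 3, 1 on day 6 and 1 on day 12, and 1 was called lower on day 12 against day 6, beside 0.563%, 3.89%, 9.85% and 3.91% of all genes. With no minimum, the upward calls among all 48 were 4 on day 6, 10 on day 12 and 3 on day 12 against day 6, beside 5.33%, 13.9% and 8.49% of all 24197 rows. With at least 1 FPKM in either group they were 5 on day 12 and 2 on day 12 against day 6, Abcd2 among both, beside 16.2% and 9.56% of all genes. At 1.5-fold, 1 (Abcg2) was called higher on day 1 and 1 (Abcg2) on day 2, 6 were called higher on day 6, and 8 were called lower on day 12 against vehicle and 8 against day 6. The shares of all genes were 1.56%, 2.86%, 10.5%, 29.5% and 29.2%. After recentring, none was called lower on day 12 (0 against vehicle and 0 against day 6), so the lower calls of Abcb10 and Abce1 depend on the scaling. The low levels of genes such as Abcc2 limit what a ratio can show, since the reads behind them are not given.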

Other observations

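The steps of low FPKM values gave the depth of each treated library relative to a vehicle library. On day 12 the depths were 0.786 and 0.412, 1.91-fold apart, while the libraries of the other treated groups differed by 1.01-fold to 1.14-fold. Such depths are inferred, and those of day 12 rest on 89 and 55 genes on a shared step, of 2647 compared. At the same FPKM, a day 12 value therefore rests on fewer reads than a vehicle value.

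Some ABC rows overlap other genes on the coordinates of the table. Mir877 lies within Abcf1 and was listed at 1.14 to 3.70 FPKM, D330041H03Rik overlaps Abca3 at 0.328 to 0.467 FPKM, and Abcg5 overlaps Abcg8. The library kit keeps strand, but the sources used here do not state whether counting used it. Abca8a and Abca8b are also close copies, so their split is uncertain.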
